A study of Mus musculus with 3 samples.

Results

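Glutathione S-transferases (Gst and Mgst genes) and UDP-glucuronosyltransferases (Ugt genes) were examined in metaplastic, ductal and acinar cells of the inflamed mouse pancreas. The genes were chosen by symbol alone, through the RefSeq accession of each array probe. Of 49 matching symbols in the gene table, 39 had a probe on the array, 24 glutathione transferases and 15 UDP-glucuronosyltransferases, out of 21150 named genes. The other 10 (Gsta1, Gstm2-ps1, Gstp-ps, Ugt1a1, Ugt1a2, Ugt1a5, Ugt1a7c, Ugt1a8, Ugt1a9 and Ugt2a2) were not analysed here.

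The groups were ADM cells (acinar-to-ductal metaplasia, acinar cells that take on duct-like features), duct cells and acinar cells, each on 1 Agilent 1-colour array. All were cut by laser microdissection from frozen pancreas of 3 wild-type mice 48 h after caerulein pancreatitis, so every group carries the treatment and none is from an untreated pancreas. Caerulein overstimulates acinar cells through the cholecystokinin receptor. Strain, age, how the cells were recognised, and whether RNA of the mice was pooled on an array are not given in the sources used here.

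Both families attach a polar group to a reactive or fat-soluble molecule so that it can be exported. Cytosolic transferases of the alpha, mu, pi, theta, omega and zeta classes and the mitochondrial kappa class use glutathione, and the microsomal Mgst enzymes are membrane proteins with the same chemistry. UDP-glucuronosyltransferases of the endoplasmic reticulum use UDP-glucuronic acid; the Ugt1a transcripts have a first exon of their own and share all later exons, whereas Ugt2b genes are separate neighbours. In liver, many of these genes respond to the oxidant sensor NRF2 or to xenobiotic receptors such as AHR.

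Levels are log2 processed signal minus the array's 75th percentile over all non-control probes, so that 0 is that percentile. A level describes 1 probe, and probes of different genes are not set against each other. Differences are the first-named array minus the second in log2 units. A dim signal, not well above background by the scanner software, was replaced by the lowest level well above background on its array (−3.15 for ADM, −3.28 for duct, −2.04 for acinar), or kept if already above that. The difference is then a bound, written "at least". It holds only for this replacement level and scaling, and is not a limit on the true difference. Under other settings of background, scaling and filter, some of these differences came nearer to 0. Gstm6 for ADM minus duct and Gsta4 for ADM minus duct and duct minus acinar were among them. With 1 array a group there is no test between groups and no replicate check of any difference; genes are counted at 2-fold. The scanner software's own error of the 71 member values well above background ran from 0.144 to 0.317 log2 units, which covers the spot only. In microdissected tissue, fewer cells of a type and less RNA per cell cannot be told apart.

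The acinar array was weaker than the others, with 22635 of 55664 probes well above background, against 27658 on the ADM array and 27841 on the duct array. Of 13 acinar markers, 11 were at least 2-fold lower in ADM and 13 in duct, each against acinar. The acinar factors Ptf1a (−0.03) and Nr5a2 (0.27) were nearly level between ADM and acinar. Of 11 ductal markers compared, 11 were 2-fold or more higher in duct than acinar and 9 were lower in ADM than duct, while Krt7 was higher in ADM (1.15). Against acinar, ADM was higher in only 5 of 11 and lower in 2, Onecut2 (−1.31) and Tspan8 (at least −2.20). Duct against acinar thus follows the labels, while the ductal markers in ADM were mixed. The duct chloride channel Cftr was not well above background on any array. Markers of other cells moved with the groups. The summed linear level of 12 macrophage markers was 461 on the ADM array, 93.3 on duct and 111 on acinar, with all 12 well above background on ADM and duct and 11 on acinar. For 11 fibroblast and stellate markers it was 360, 348 and 89.1, with only Postn (duct) and Thy1 (acinar) not well above background. Summed levels of endothelial markers were 14.0, 21.3 and 15.2, of islet markers 1178, 664 and 750, and of adipocyte markers 20.9, 1.64 and 13.0. The endothelial sum was lower on ADM than on acinar, yet 4 of 7 compared markers were 2-fold or more higher in ADM and 2 lower. Kdr alone read 3.13 on ADM and 3.75 on acinar. Of the adipocyte markers, Adipoq and Lep were not well above background on any array. The brightest were Fabp4 (3.78, −0.31, 2.66) and Lpl (2.71, −0.98, 2.61). The part of these cells in the differences below was not tested. Of 8 hepatocyte markers, the liver being the best-known site of both families, Alb, Apoa1 and Cps1 were not well above background on any array, and the summed level was 7.11, 13.8 and 8.44.

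Of the 39 genes, 24 were well above background on the ADM array, 24 on duct and 23 on acinar; 20 were so on all 3 arrays and 12 on none. The glutathione transferases held 19, 18 and 19 of 24 (79.2%, 75% and 79.2%), where all named genes had 61.2%, 61.3% and 50.8%. The UDP-glucuronosyltransferases held 5, 6 and 4 of 15 (33.3%, 40.0% and 26.7%). The 12 genes with no signal well above background, for which no fold is given, were Gsta2, Gstt4, Gsto2, Mgst2, Ugt2a1, Ugt2a3, Ugt2b1, Ugt2b36, Ugt2b37, Ugt2b5, Ugt3a2 and Ugt8a, the enzyme of galactosylceramide synthesis in myelin.

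**Figure D1:**
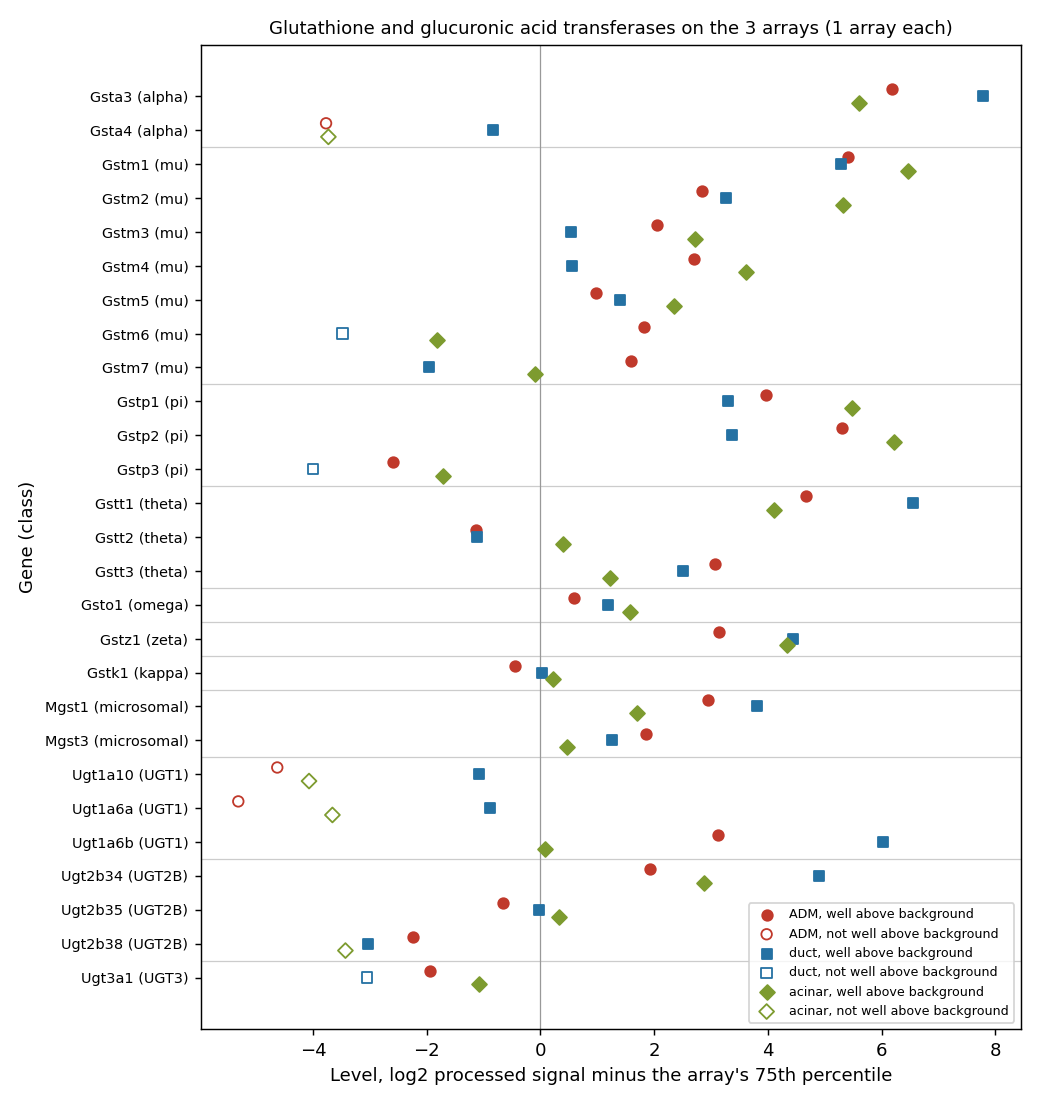
Level (log2 processed signal minus the array's 75th percentile, x axis) of the 27 genes that were well above background on at least 1 array, in rows by class, with 1 point an array for ADM, duct and acinar and open symbols where the signal was not well above background. Acinar lies to the right of duct in all mu and pi rows, with open duct symbols for Gstm6 and Gstp3. Duct lies furthest right for Gsta3, Gstt1, Ugt1a6b and Ugt2b34.

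Close relatives limit what a probe can name, and probe sequences were not used here. The 7 mu genes, the 3 pi genes and the 4 theta genes each lie side by side with 0 other protein-coding genes between them in the gene table, and the Ugt1a genes are alternative first exons of 1 locus. Values of mu, pi, Ugt1a and Ugt2b genes are therefore uncertain as to which relative was measured. The start regions of Gstp1 and Gstp2 show how alike such neighbours can be before the gene, although these are not the sequences that probes read. The 150 bases before each start (RefSeq, GRCm38.p6) are given 5′ to 3′ on the gene's strand, for Gstp1 at chr19:4037913-4038062 (minus strand) and for Gstp2 at chr19:4042222-4042371 (minus strand), with a match to the AP-1 site TGANTCA in capitals. AP-1 factors (Fos and Jun proteins) bind such sites.
Gstp1: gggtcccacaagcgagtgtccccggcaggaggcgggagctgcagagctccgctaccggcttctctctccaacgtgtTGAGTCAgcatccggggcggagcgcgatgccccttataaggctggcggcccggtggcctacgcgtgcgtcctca
Gstp2: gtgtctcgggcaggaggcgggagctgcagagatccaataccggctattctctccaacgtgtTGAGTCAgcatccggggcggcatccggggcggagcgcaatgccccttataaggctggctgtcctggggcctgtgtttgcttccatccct
Of 135 aligned positions, 116 (85.9%) were identical, with 30 gap positions left out. The match lay 74 bases before the start in Gstp1 and 89 in Gstp2. Over the whole 300-base windows, gaps again left out, Gstp3 had 61.8% identity with Gstp1, and pairs of mu genes had 50.5% to 62.4%. Unrelated pairs were not aligned for a baseline.

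The antioxidant response element core TGACNNNGC, the letters that NRF2 with small MAF proteins binds, was held by Gsta3 and Mgst1, higher in duct than in acinar cells, and also by Gstm5 and Gstm7, lower in duct (−0.96 and −1.87). The 150-base window, plus strand in both, is shown as an example on each strand for Gsta3 at chr1:21240435-21240584 and for Mgst1 at chr6:138140377-138140526 (RefSeq, GRCm38.p6), with that core in capitals. In Mgst1 the core is on the opposite strand.
Gsta3: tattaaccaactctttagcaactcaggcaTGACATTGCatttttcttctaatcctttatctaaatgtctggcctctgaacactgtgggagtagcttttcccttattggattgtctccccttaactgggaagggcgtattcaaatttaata
Mgst1: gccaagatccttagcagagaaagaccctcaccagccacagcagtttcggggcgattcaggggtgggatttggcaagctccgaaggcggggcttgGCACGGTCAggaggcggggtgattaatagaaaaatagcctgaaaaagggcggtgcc
The core began 121 bases before the start in Gsta3 and 56 in Mgst1. RefSeq windows of 300 bases (250 before and 50 after the start) were matched for 35 of the 39 genes; Gsta4, Gstt2, Ugt1a6b and Ugt3a2 had none. Searched on both strands in any window of a gene, the core was held by 4 of 35 (11.4%; Gsta3, Gstm5, Gstm7 and Mgst1) and by 14.0% of all 27025 genes. The AP-1 site was held by 9 of 35 (25.7%) and 8.97% of all genes, and the AHR core GCGTG by 7 of 35 (20.0%) and 35.2% of all genes. Core and AP-1 matches can overlap, as they did in 149 of the 384 windows that held both. These are matches of letters and show no binding.

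In ADM against acinar cells, the question being what acinar cells gain or lose on metaplasia, 6 of the 24 compared genes were higher by 2-fold or more, 6 lower by 2-fold or more and 12 within 2-fold. Over all 13620 named genes compared, 21.8% were higher and 22.0% lower, so the shares of 25.0% each were near the background. The median difference was −0.87, against 0.00 over all genes, bounds included, and −0.26 over named genes well above background on both arrays. Among the 20 genes well above background on all 3 arrays, 5 were higher and 6 lower. The genes below are ordered by class.

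The mu genes, general detoxifying transferases, divided. Gstm2 read 2.84 on the ADM array, 3.26 on duct and 5.31 on acinar. It was low in both ADM and duct, and its difference of −2.48 between ADM and acinar (5.56-fold lower) was the largest decrease among the compared genes; its 3 probes gave −2.48 to −1.88. Gstm1 read 5.42, 5.28 and 6.46, and Gstm5 read 0.97, 1.39 and 2.36. Both were lower in ADM than in acinar, Gstm1 by 2.06-fold with 2 probes at −1.04 and −1.02, Gstm5 by 2.61-fold. Gstm3 read 2.06, 0.54 and 2.72 and Gstm4 read 2.70, 0.56 and 3.62, within 2-fold between ADM and acinar (−0.66 and −0.92).

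Gstm6 and Gstm7 went the other way by their brightest probe, and their other probes disagreed. The brightest Gstm6 probe read 1.82 on ADM and −1.81 on acinar, 12.4-fold higher in ADM, and was not well above background on duct. A second Gstm6 probe was well above background on acinar only and gave at least −1.89. For Gstm7, 1 probe read 1.60, −1.96 and −0.09 (ADM 3.23-fold higher than acinar), whereas another, printed 10 times on the array, gave −1.10 for ADM minus acinar. The directions of Gstm6 and Gstm7 between ADM and acinar are thus unsettled.

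The pi genes were lower in ADM by 1.84 to 2.85-fold. Gstp1, the main pi-class enzyme, read 3.97 on ADM, 3.31 on duct and 5.48 on acinar, a difference of −1.51 between ADM and acinar that its second probe gave as −1.46. Gstp2 read 5.30, 3.37 and 6.22 (−0.92, second probe −1.48) and Gstp3 read −2.59, −4.0 (not well above background) and −1.71 (−0.88). All 3 had their highest level on the acinar array.

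Theta, zeta and microsomal genes were mixed. Gstt3 read 3.07, 2.51 and 1.22 on ADM, duct and acinar with ADM 3.60-fold above acinar. Gstt2 read −1.13, −1.11 and 0.39 and was 2.87-fold lower, and Gstt1 (4.67, 6.56, 4.11) was within 2-fold (0.57). Theta enzymes act on small halogenated compounds and peroxides, and the group showed no common direction. Gstz1, which is also maleylacetoacetate isomerase of tyrosine breakdown, read 3.14, 4.44 and 4.33 and was 2.27-fold lower in ADM than in acinar. Gsto1 (0.60, 1.19, 1.57), an omega enzyme that reduces dehydroascorbate, differed by −0.97, and the kappa gene Gstk1 (−0.46, 0.02, 0.22) by −0.68.

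Both measured microsomal genes were higher in ADM than in acinar. Mgst1, an abundant membrane enzyme that also reduces lipid peroxides, read 2.95 on ADM, 3.80 on duct and 1.70 on acinar, 2.38-fold higher in ADM than in acinar; its second probe gave 1.51 in place of 1.25. Mgst3 read 1.85, 1.25 and 0.47, 2.60-fold higher in ADM than in acinar, with 0.87 from its second probe. ADM was thus above acinar by both probes of both genes.

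Among the UDP-glucuronosyltransferases, 1 of 5 compared genes was 2-fold or more higher in ADM and 0 were 2-fold or more lower. Ugt1a6b, of the subfamily that conjugates planar phenols, read 3.11 on ADM, 6.02 on duct and 0.08 on acinar, a graded order with ADM 8.19-fold above acinar. Only 3.03% of all compared genes had a larger positive difference. Its other probe read −2.40 on ADM, −1.83 on duct and −2.97 (not well above background) on acinar and gave no more than a bound of 0.00, so the size rests on 1 probe. Ugt2b34 (1.93, 4.90, 2.88), Ugt2b35 (−0.66, −0.03, 0.33) and Ugt3a1 (−1.94, −3.05 and not well above background on duct, −1.08) were within 2-fold of acinar, at −0.95, −0.99 and −0.86. Ugt2b38 read −2.24, −3.03 and −3.43 (not well above background on acinar).

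Of the 6 higher genes (Gstm6, Gstm7, Gstt3, Mgst1, Mgst3 and Ugt1a6b), all 6 kept 2-fold under 5 other settings of background, scaling and filter, with the same probe. Of the 6 lower genes, Gstm2 and Gstp1 did, while Gstm1, Gstm5, Gstt2 and Gstz1 came within 2-fold in at least 1 of them. The setting without a filter could not change these differences, which were all measured on both arrays.

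**Figure D2:**
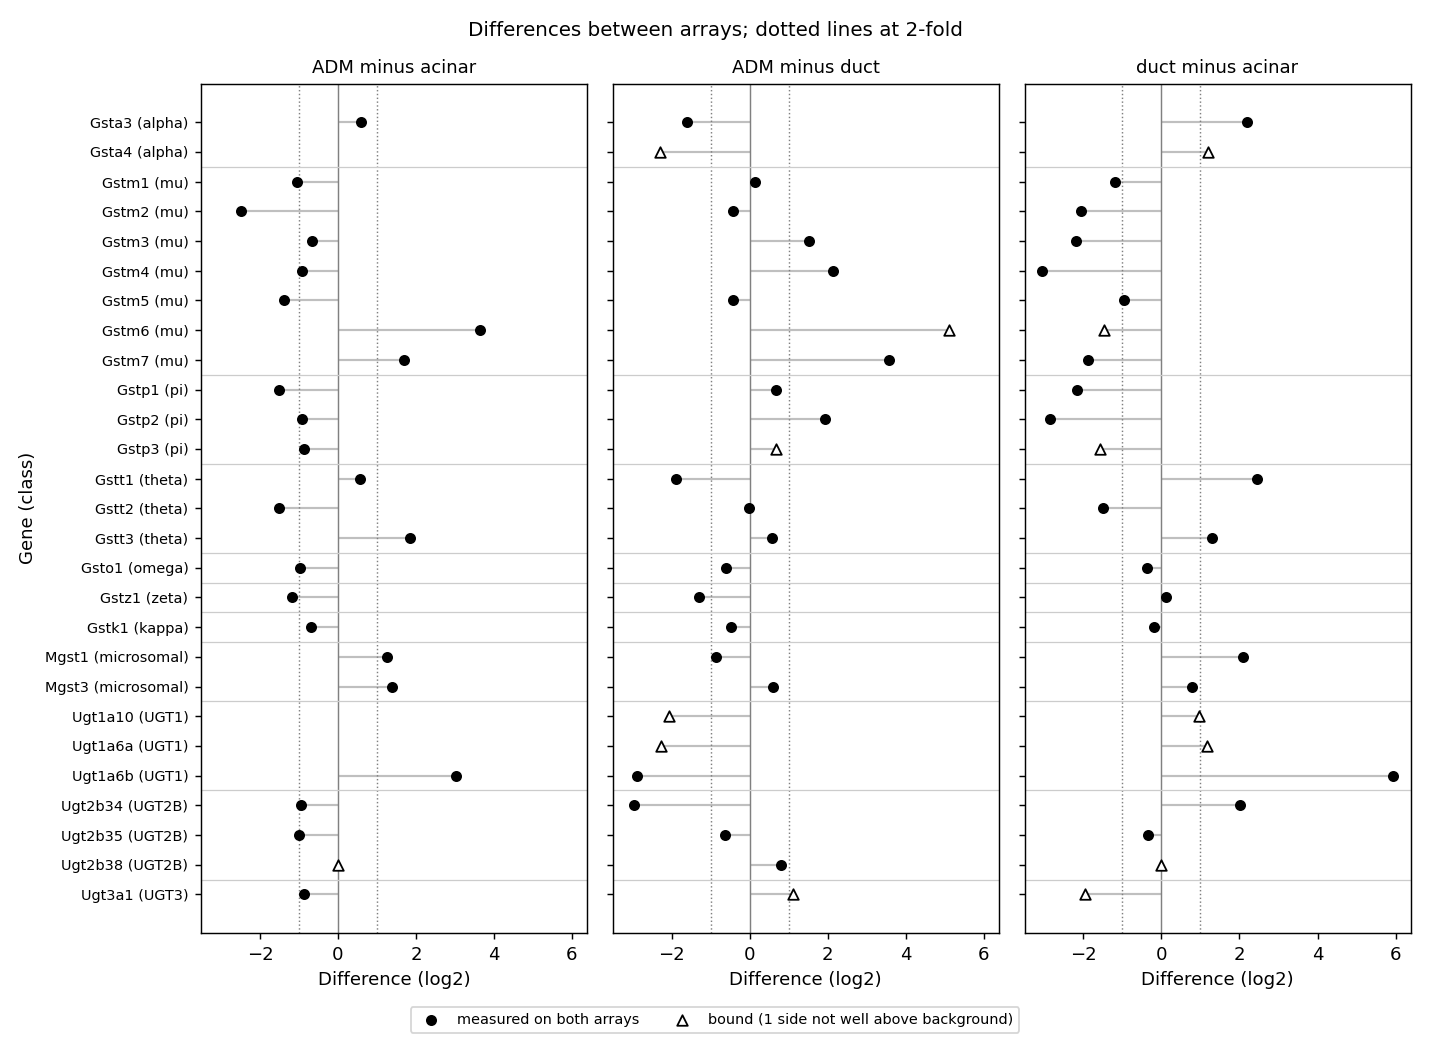
Difference in log2 units (x axis) for each of the 27 genes in ADM minus acinar, ADM minus duct and duct minus acinar, with filled points measured on both arrays, open triangles for bounds and dotted lines at 2-fold. All mu and pi points lie left of 0 in the duct minus acinar panel, but Gstm6 and Gstp3 are bounds there whose direction was fixed. In that panel Ugt1a6b lies at 5.93 by its brightest probe, while its other probe gave at least 0.22.

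Against duct cells, which asks how far ADM resembles ducts, 6 of 27 compared genes reached 2-fold higher in ADM (22.2%, against 21.6% of all 14465 named genes compared) and 8 reached 2-fold lower (29.6%, against 24.8%). The median was −0.42, against −0.05 over all genes. The higher genes were Gstm3, Gstm4, Gstm6, Gstm7, Gstp2 and Ugt3a1. The lower ones were Gsta3, Gsta4, Gstt1, Gstz1, Ugt1a10, Ugt1a6a, Ugt1a6b and Ugt2b34. Ugt3a1 (at least 1.11) was not well above background on duct and was compared only through ADM, which fixed its direction. Among genes well above background on all 3 arrays, 4 were higher and 5 lower.

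Of the mu genes, 4 of 7 were 2-fold or more higher in ADM than in duct, and of the pi genes 1 of 3; Gstm6 was compared only through ADM, where it was high. Gstm4 was 4.41-fold higher in ADM than in duct by its brightest probe, but its second probe gave −0.62. Gstm3 was 2.87-fold higher (second probe at least 0.48), Gstm7 11.8-fold higher, with both probes at 3.55 to 3.56 and the second a bound, and Gstm6 at least 34.3-fold higher by 1 probe. Gstp2 was 3.81-fold higher (1.93, second probe 1.18), while Gstp1 was 1.58-fold higher (0.66) by 1 probe and 1.37 log2 units higher by the other. Gstm1 (0.14), Gstm2 (−0.42) and Gstm5 (−0.42) were within 2-fold, so the mu genes did not move as 1 block.

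Both compared alpha genes, 1 theta gene and the zeta gene were lower in ADM than in duct by 2-fold or more. Of the alpha genes, only Gsta3 was measured on both arrays, and Gsta4 is a bound whose direction was fixed. Gsta3, an alpha enzyme known in mice for conjugating aflatoxin epoxide, read 6.19 on ADM, 7.79 on duct and 5.59 on acinar, and was 3.03-fold lower in ADM than in duct, with −1.76 from the second probe. Gsta4, which clears the lipid aldehyde 4-hydroxynonenal, was well above background on duct only (−0.84, SD 0.169 over 10 repeated spots) and at least 4.95-fold lower in ADM. Gstt1 was 3.68-fold lower in ADM and Gstz1 2.46-fold lower. Duct was the highest of the 3 arrays for each of these 4 genes, for Gstz1 by only 0.11 over acinar.

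By 2-fold or more, ADM was below duct in 4 of the 7 Ugt genes compared and above it in 1, with Ugt2b35 (−0.63) and Ugt2b38 (0.79) within 2-fold. Ugt2b34 was 7.86-fold lower in ADM and Ugt1a6b 7.47-fold lower. Ugt1a10 read −1.09 and Ugt1a6a −0.88 on duct and neither was well above background on ADM or acinar, which gave at least 4.18-fold and at least 4.80-fold lower in ADM. These 2 genes and Gsta4 were compared only because they were high on the duct array, so their count is no support for a direction. Under the other background, scaling and filter settings, 5 of the 6 higher genes (not Ugt3a1) and 5 of the 8 lower genes (not Gsta4, Ugt1a10 or Ugt1a6a) kept 2-fold.

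Between duct and acinar cells, 8 of 27 compared genes reached 2-fold higher in duct (29.6%, against 27.4% of all 13820 named genes compared) and 11 reached 2-fold lower (40.7%, against 24.6%). With median scaling, duct held 64.7% of all genes past 2-fold in place of 52.8%, and 10 of these genes were higher and 10 lower. The glutathione transferases had 10 of 20 lower and 5 higher (median −1.07). The UDP-glucuronosyltransferases had 1 of 7 lower and 3 higher. Genes dim on 1 of the arrays entered these counts only through the array where they were high (Gsta4, Ugt1a6a and Ugt1a10 through duct, Gstm6, Gstp3 and Ugt3a1 through acinar), so their direction was fixed. Among the 20 genes well above background on all 3 arrays, 6 were higher and 8 lower, with a median of −0.36. Over all compared genes, bounds included, the median was 0.00, and over named genes well above background on both duct and acinar it was −0.17.

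Of the 8 mu and pi genes measured on both arrays, 8 were lower in duct than in acinar, 7 of them by 2-fold or more. The other 2, Gstm6 and Gstp3, were not well above background on duct and were compared only through acinar, which fixes their direction. Gstm4 was 8.34-fold lower, Gstp2 7.22-fold, Gstm3 4.54-fold, Gstp1 4.50-fold, Gstm2 4.16-fold and Gstm7 3.66-fold. Gstp3 was at least 2.96-fold lower, Gstm6 at least 2.76-fold, Gstm1 2.27-fold and Gstm5 1.95-fold. Every compared probe of Gstm1, Gstm2, Gstm4, Gstp1 and Gstp2, all measured on both arrays, gave a lower level in duct, the weakest being −0.83 for the second Gstm4 probe. The second probes of Gstm3 and Gstm7 and both compared Gstm6 probes gave bounds in that direction. Gstt2 (2.83-fold) and Ugt3a1 (at least 3.91-fold) were lower in duct as well.

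Higher in duct were Ugt1a6b (61.2-fold), Gstt1 (5.45-fold), Gsta3 (4.57-fold), Mgst1 (4.29-fold), Ugt2b34 (4.07-fold), Gstt3 (2.44-fold), Gsta4 (at least 2.30-fold) and Ugt1a6a (at least 2.23-fold). Only 0.10% of compared genes exceeded Ugt1a6b, but its other probe gave at least 0.22. Gsta3 held with its second probe (2.67), as did Mgst1 (2.36). Mgst3 was 0.78 higher by its brightest probe and −1.45 by the other. Gsto1 (−0.37), Gstk1 (−0.20), Gstz1 (0.11) and Ugt2b35 (−0.35) lay within 2-fold. Of the calls, 6 of 8 higher (not Gsta4 or Ugt1a6a) and 5 of 11 lower (not Gstm1, Gstm6, Gstm7, Gstp3, Gstt2 or Ugt3a1) kept 2-fold under all 5 other settings.

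**Figure D3:**
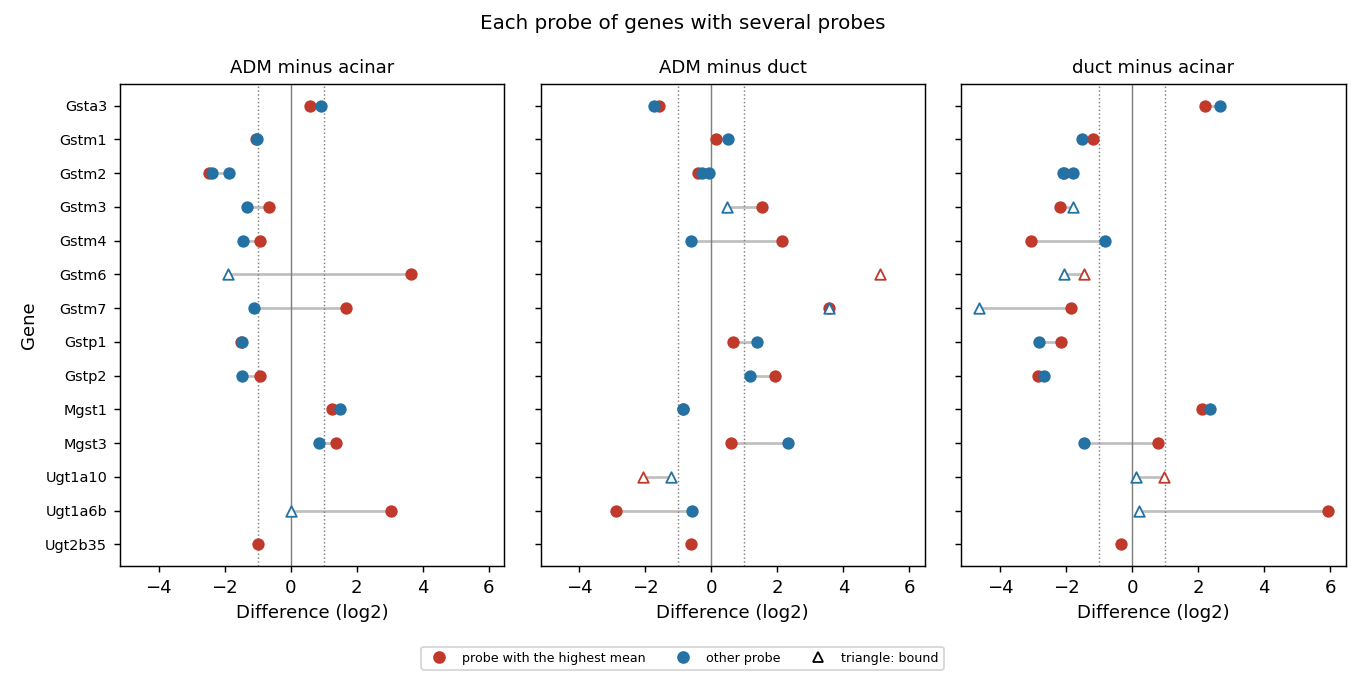
Difference in log2 units (x axis) given by each compared probe of the 14 genes that have several probes and signal on at least 1 array, red for the probe with the highest mean and blue for others, with triangles for bounds. Probes of Gsta3, Gstm1, Gstm2 and Mgst1 lie close together, and those of Ugt1a6b lie far apart in all panels. Those of Gstm6 lie far apart in ADM minus acinar and those of Gstm7 in both comparisons with acinar. Those of Gstm4 and Mgst3 lie far apart in both comparisons with duct.

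Where at least 2 probes of a gene could be compared, probes took opposite signs in 2 of 12 genes for ADM minus acinar (Gstm6 and Gstm7), 1 of 12 for ADM minus duct (Gstm4) and 1 of 13 for duct minus acinar (Mgst3). The median spread between the probes of a gene was 0.55, 0.73 and 0.60 log2 units. These spreads were larger than the median SD of repeated spots, 0.104 on ADM, 0.0870 on duct and 0.115 on acinar.

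ADM lay between duct and acinar in 9 of the 20 genes well above background on all 3 arrays (45.0%, against 46.1% of 9525 named genes). It lay above both in 3, Gstm7, Gstt3 and Mgst3 (15.0%, against 22.3%), although the second Gstm7 probe put acinar above ADM, and below both in 8, Gstm2, Gstm5, Gstt2, Gsto1, Gstz1, Gstk1, Ugt2b34 and Ugt2b35 (40.0%, against 31.6%). The 9 in between included Gstp1, Gstp2, Gstm3 and Gstm4, with acinar highest, and Gsta3, Gstt1, Mgst1 and Ugt1a6b, with duct highest.

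**Figure D4:**
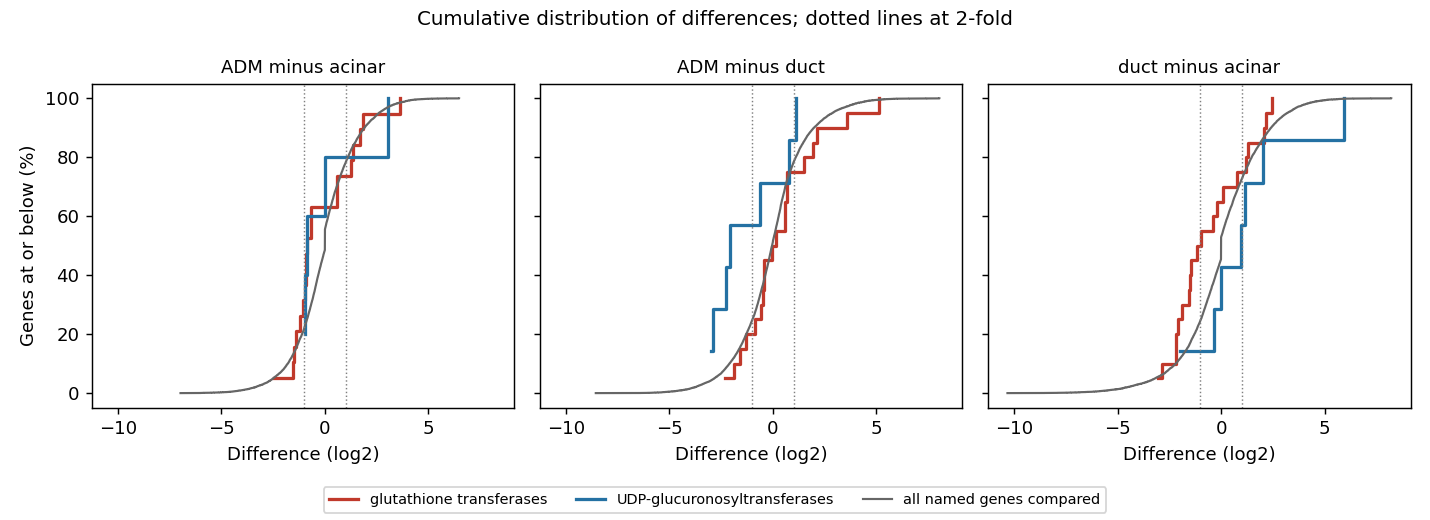
Percentage of genes (y axis) at or below each log2 difference (x axis) for the compared glutathione transferases, UDP-glucuronosyltransferases and all named genes, with dotted lines at 2-fold. The transferases lie left of all genes over most of the duct minus acinar panel (median −1.07). The UDP-glucuronosyltransferase curves rest on 5 to 7 genes, with bounds for Ugt1a6a and Ugt1a10 that entered only through duct.

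The genes that supply and use the same cofactors were counted from textbook lists, by the brightest probe and at 2-fold. List genes dim on 1 of the 2 arrays entered only through the array where they were high, so their direction was fixed. Over all named genes the shares higher and lower were 21.8% and 22.0% in ADM relative to acinar, 21.6% and 24.8% in ADM relative to duct, and 27.4% and 24.6% in duct relative to acinar. Of the glutathione synthesis and breakdown genes, ADM was 2-fold or more above acinar in 4 of 13 compared and below it in 2 (median 0.13). ADM was above duct in 5 of 13 and below it in 2 (−0.47), and duct was above acinar in 4 of 12 and below it in 6 (−0.79). In ADM against acinar, Gss, Ggt6 and Ggct were counted higher only through ADM, and Chac2 lower only through acinar. Gclc, the catalytic subunit of the rate-limiting step, read 1.33 on ADM, 2.49 on duct and 0.60 on acinar, highest in duct, while its partner Gclm was not well above background on any array. Gss, which completes glutathione, was well above background on ADM only (0.19), with at least 2.23 over acinar and at least 3.46 over duct. Gsr, which regenerates glutathione, was nearly level (3.03, 3.50, 3.40). Ggt1, which starts extracellular glutathione breakdown, read 1.84, 2.62 and 5.50 and was far higher in acinar. Chac1, a cytosolic glutathione-degrading enzyme of the stress response, was bright on ADM and acinar (2.09 and 2.19) and not well above background on duct. Ggct, which cleaves gamma-glutamyl amino acids, was at least 2.25 higher in ADM than in acinar and at least 3.28 higher in duct than in acinar.

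For other glutathione-using enzymes, ADM was above duct in 10 of 19 and below it in 1 (median 1.27). It was above acinar in 5 of 19 and below it in 3 (0.17), and duct was above acinar in 2 of 17 and below it in 5 (−0.53). In ADM against duct, Gpx7, Glrx and Hpgds were counted higher only through ADM, and Ptges2 lower only through duct. Glrx, a glutaredoxin, was at least 4.28 higher in ADM than in duct, and Hagh, the second glyoxalase, read 0.81, −1.47 and 2.71. Alox5ap, a leukotriene-pathway relative of the microsomal transferases that is abundant in macrophages, read 3.41, 0.27 and 0.71, highest on the ADM array, which also had the highest macrophage marker sum; the part of those cells was not tested. Ptges2, a prostaglandin E synthase, was well above background on duct and acinar (0.99 and −0.01) but not on ADM.

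Of the NRF2 pathway genes, 11 of 21 compared (52.4%, against 21.8% of all named genes) were 2-fold or more above acinar in ADM and 2 were below, with a median of 1.05. In duct, 11 of 22 were above acinar, where all named genes had 27.4%, and 1 below (1.04), and between ADM and duct 5 of 22 were above and 5 below (−0.19). Maff and Pgd were counted above acinar in ADM only through ADM. Maff, Pgd and Nqo1 were counted above acinar in duct only through duct, so these directions were fixed. Probes of Mafg, counted above acinar in ADM, ran from −1.09 to 1.19 in that comparison. Nfe2l2, the gene of NRF2 itself, read 1.89 on ADM, 2.63 on duct and 1.91 on acinar, within 2-fold throughout. Keap1, its inhibitor, read −0.23, 2.87 and 3.43 and was low in ADM. Targets differed in which array was high. Nqo1, a quinone reductase, was well above background on duct only (0.91), with a bound of −4.06 for ADM minus duct, whereas Hmox1, the haem oxygenase that macrophages also express, read 5.51, 1.35 and 2.92, highest in ADM. The NADPH-producing enzymes G6pdx (3.18, 3.66, −1.09) and Me1 (1.07, 3.92, −0.70) were lowest in acinar, and Osgin1 read −1.93, 3.25 and 0.58.

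Ugdh, the dehydrogenase that makes UDP-glucuronic acid, read 3.18, 3.70 and 3.33 on ADM, duct and acinar, within 2-fold throughout. Ugp2, which provides its precursor, read −0.19, 0.84 and −0.13, highest in duct, with a difference of −1.03 between ADM and duct that its other probe gave as −3.70. Slc35d1, which carries the sugar nucleotide into the endoplasmic reticulum, read 1.63, −2.21 and −0.50, 14.4-fold higher in ADM than in duct and 4.36-fold higher than in acinar. Gusb, the lysosomal enzyme that removes glucuronic acid, read 1.11, 1.0 and 0.81. Of the 5 genes compared, 1 was higher and 0 lower in ADM than in acinar (median −0.06), 1 higher and 1 lower in ADM than in duct (−0.53), and 0 higher and 1 lower in duct than in acinar (0.19).

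Among xenobiotic sensors, ADM was above acinar in 2 of 10 and below it in 1 (median −0.09). It was above duct in 1 of 9 and below it in 4 (−0.82), and duct was above acinar in 5 of 10 and below it in 4 (0.84). Ahr read 0.39, 1.42 and 0.86. The bile acid receptor gene Nr1h4 read −0.33 and 1.05 on ADM and duct and was not well above background on acinar. Ppara (−1.99, 0.61, −1.09) and Rxra (0.97, −1.30, 0.48) had probes that disagreed in sign in at least 1 comparison.

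For phase I genes, whose oxidised products feed both families, ADM was above acinar in 5 of 14 and below it in 5 (0.13). It was above duct in 5 of 15 and below it in 5 (−0.20), and duct was above acinar in 4 of 15 and below it in 3 (−0.03). Cyp2s1 read −1.51 on ADM and 3.38 on duct and was at least 5.43 higher in duct than in acinar. Por, the electron donor of microsomal P450s, read 2.63, 4.0 and 0.80, also highest in duct, while Fmo1 was highest in acinar (1.21) and Fmo5 read 1.55, −1.92 and 0.10, lowest in duct, with probes that disagreed between ADM and acinar (1.45 and −0.078). For other conjugating genes, ADM was above acinar in 1 of 8 and below it in 2 (0.15). It was above duct in 2 of 8 and below it in 4 (−0.88), and duct was above acinar in 4 of 8 and below it in 1 (0.45). Duct was the highest array for the sulphotransferases Sult1a1 (−0.59, 2.90, 1.85), Sult1c2 (0.05, 1.66, −0.74) and Sult2b1 (−0.20, 1.63, not well above background on acinar), and acinar for Nat2 (−0.27, −1.30, 1.12).

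For conjugate exporters, ADM was above acinar in 3 of 9 and below it in 2 (−0.49). It was above duct in 2 of 9 and below it in 3 (−0.71), and duct was above acinar in 4 of 9 and below it in 1 (0.41). Abcc3, a basolateral exporter of glucuronides, read 4.37 on ADM, 3.05 on duct and 1.24 on acinar, 3.13 log2 units higher in ADM than in acinar. Abcc1, an exporter of glutathione conjugates, read −2.02, −0.66 and 1.55, in the opposite order. Abcb1a (1.01, −0.16) and Abcg2 (−1.29, 1.62) were well above background on ADM and duct and not on acinar.

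**Figure D5:**
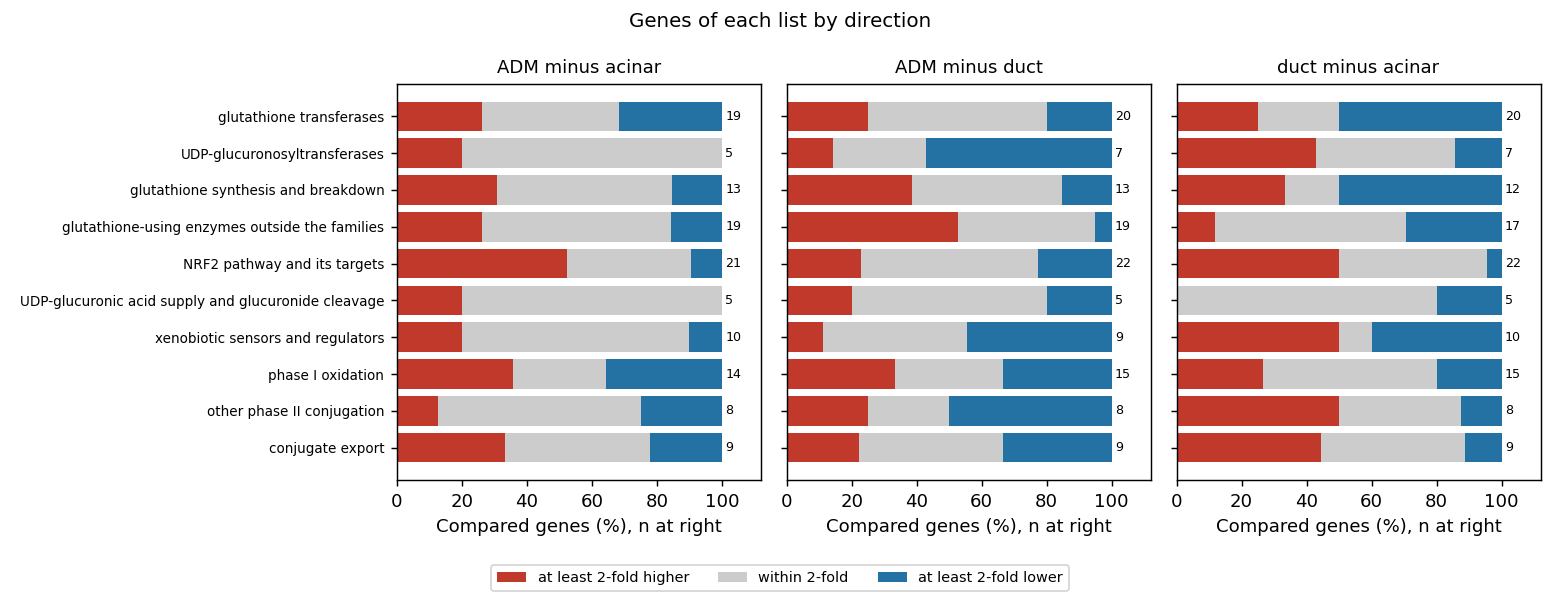
Share of compared genes (%, x axis, with their number at the right) that were at least 2-fold higher, within 2-fold or at least 2-fold lower in each comparison, for both families and 8 lists of related genes. The NRF2 list has 11 of 21 higher in ADM minus acinar (21.8% of all named genes) and 11 of 22 higher in duct minus acinar (27.4%). The glutathione transferases have 10 of 20 lower in duct minus acinar (24.6% of all named genes). Each count includes bounds, whose direction was fixed.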

How the data were processed

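RNA from the ADM, duct and acinar samples went onto 1-colour Agilent arrays, 3 in all. Per the labels' protocols, 1.181 ng of RNA was amplified and 2.0 µg of cDNA labelled with Cy3. The deposited scanner tables hold spot intensity, background-subtracted and corrected for spatial trend by Agilent Feature Extraction 11.5.1.1, per the file headers and the submitters' processing notes, with no scaling between arrays. The deposited series value table holds log2 values that equalled the log2 processed signal plus 1 constant per array (−6.17 for ADM, −6.58 for duct, −5.13 for acinar) within 0.001 for all 32905 matched probes; it was not centred by gene or turned in sign. Its column medians were −0.56, −0.63 and −0.57.

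Control spots (3671) and spots with outlier flags (117, 110 and 115) were left out, repeated spots were averaged in log2, and the 75th percentile over 55664 probes was subtracted. A probe was well above background where all its spots were. RefSeq accessions named 28020 probes with 1 symbol each, through a gene table of GRCm38.p6 used for names and neighbours only, since the arrays were annotated on mm9; 27644 probes stayed unnamed here. A gene with several probes was read from the one brightest on average. The genes, the 8 pathway lists, the 8 marker lists and the rule for named genes (all family genes, plus up to 4 largest differences in each pathway list and a few fixed names) were chosen with earlier results of these data known. The pathway lists hold 118 genes, all on the array; 1 gene that the rule names is not reported here. The procedure was tested on simulated data. Python 3.11.15, pandas 2.3.3 and limma 3.58.1 (normexp with offset 50, quantile normalization) were used.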

Additional observations from a re-analysis of the deposited data

How the results depend on the processing

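With 1 array a group, no replicate could be left out, and no paired analysis was possible because each group has 1 sample; spot errors and repeated probes are the only measures of precision. The acinar array had the fewest probes above background, so low signals there give bounds. Every member difference past 2-fold kept its sign under each background, scaling and filter setting. Of 45 such differences, 29 kept 2-fold with normexp, 41 with median scaling, 44 with a 75th percentile taken only over probes detected on all 3 arrays, 41 with quantile normalization, 42 with the mean of probes and 45 with the series value table. Taking other probes changed directions: Gstm6 for ADM minus acinar became −0.24 with the mean of its probes and −1.89 with the second-brightest probe, Gstm7 became −1.10 and Gstm4 for ADM minus duct −0.62 with the second-brightest probe.

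Counts and medians for ADM minus acinar moved with normexp (2 lower, median −0.37), median scaling (−0.64), quantile normalization (−0.68), no filter (18 lower) and the second-brightest probe (1 higher, −1.21). For ADM minus duct they moved with normexp (5 lower, −0.26), median scaling (−0.58), only probes above background on all 3 arrays (5 lower), no filter (0.14), the mean of probes (−0.23) and the second-brightest probe (2 lower, 0.10). For duct minus acinar they moved with normexp (5 lower, −0.010), median scaling (0.013), no filter (21 lower, −1.18) and the second-brightest probe (2 higher, −1.54). The second-brightest probe covers 12 or 13 genes, and without a filter all 39 genes enter, background signals included. Median scaling moved the median of all compared genes to 0.05, −0.20 and 0.28 for ADM minus acinar, ADM minus duct and duct minus acinar, where it had been 0.00, −0.05 and 0.00. Over all genes, normexp gave 1681 higher and 927 lower for ADM minus acinar, 1472 and 2147 for ADM minus duct, and 2845 and 1494 for duct minus acinar, in place of 2966 and 2996, 3120 and 3594, and 3791 and 3394.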
